A study of Arabidopsis thaliana with 6 samples.

Results

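The genes described here are 10 members of 2 Arabidopsis thaliana families that carry inorganic phosphate into cells or out of them towards the xylem. The PHT1 family is represented by PHT1;1 (AT5G43350), PHT1;2 (AT5G43370), PHT1;3 (AT5G43360), PHT1;4 (AT2G38940), PHT1;5 (AT2G32830), PHT1;7 (AT3G54700), PHT1;8 (AT1G20860) and PHT1;9 (AT1G76430). The PHO1 family is represented by PHO1 (AT3G23430) and PHO1;H1 (AT1G68740). They were taken by locus ID, and all 10 were among the 36793 loci of the deposited tables. Total RNA was sequenced from callus, a mass of dividing cells, that grew from cut leaves of Col-0 seedlings 2 weeks old on medium that induces callus. The 3 libraries labelled 12DAC were collected after 12 days on that medium and the 3 labelled 7DAC after 7 days. The submitters call the replicates biological, but the sources used here do not say whether each was a separate plate or plant, so p-values measure the spread between these libraries. No mutation or added treatment is named for either group.

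PHT1 proteins are proton-coupled phosphate carriers of the plasma membrane, best known for uptake by roots. PHO1 and its relatives have SPX and EXS domains, and PHO1 exports phosphate into the root xylem. When phosphate is scarce, the transcription factor PHR1 binds the P1BS element in front of many phosphate genes, whereas SPX proteins hold PHR1 back when phosphate is ample. PHO2 and NLA mark transporters of these families for breakdown, and PHF1 lets PHT1 proteins leave the endoplasmic reticulum.

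Short reads separate some of these genes better than others, so the start of 4 coding sequences is shown first. Each line gives coding bases 1 to 90, 5′ to 3′, from the RefSeq annotation of assembly TAIR10.1. Capitals mark bases that differ from PHT1;1.
PHT1;1: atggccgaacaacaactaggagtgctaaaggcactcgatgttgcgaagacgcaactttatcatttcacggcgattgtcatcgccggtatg
PHT1;2: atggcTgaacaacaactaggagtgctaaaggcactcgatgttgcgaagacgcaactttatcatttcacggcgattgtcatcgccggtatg
PHT1;3: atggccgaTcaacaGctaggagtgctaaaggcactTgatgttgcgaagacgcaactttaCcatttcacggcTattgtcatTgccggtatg
PHT1;4: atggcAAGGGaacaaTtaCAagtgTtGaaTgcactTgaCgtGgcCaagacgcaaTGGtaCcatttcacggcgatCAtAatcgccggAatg
The second sequence differed from the first at 1 of these bases, the third at 6 and the fourth at 23. Over the whole coding sequence, AT5G43350 and its neighbour AT5G43370 were 97.7% identical, with 36 mismatches in 1575 bases. The third gene of that cluster, AT5G43360, was 89.7% identical to the first. The closest pair outside the cluster was PHT1;4 and PHT1;7, at 81.2%. The xylem exporter PHO1 and AT1G68740 were 61.9% identical. Of the 50-base stretches in the transcript of AT5G43350, 57.6% occurred nowhere else in the genome or in the other PHT1 and PHO1 transcripts compared. The share was 54.6% for AT5G43370, 98.7% for AT5G43360 and 100% for each of the other 7 members. No annotated gene overlapped any of the 10.

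Among the importers, PHT1;4 was the most abundant and was higher in 12DAC callus. This gene, a main carrier of phosphate uptake in roots, had 102.4, 183.2 and 135.3 CPM (counts scaled to library depth with TMM factors) in 12DAC replicates 1, 2 and 3, against 21.8, 22.0 and 29.1 CPM in 7DAC replicates 1, 2 and 3. Every 12DAC library stood above every 7DAC library. The mean was 140.3 ± 40.6 CPM in 12DAC callus and 24.3 ± 4.17 CPM in 7DAC callus (SD, n = 3 each). It rose by 2.53 ± 0.24 on the log2 scale (SE), with an adjusted p of 0.00180 in edgeR's quasi-likelihood test with Benjamini-Hochberg adjustment. Of the 18364 genes tested, 204 had a log2 change at least as high. In bulk callus, more cells of a type and more RNA per cell cannot be told apart.

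The other well-known root importer gene, PHT1;1, stood far lower. It had 4.39, 2.87 and 4.24 CPM in 12DAC replicates 1, 2 and 3, against 2.18, 2.69 and 1.22 CPM in 7DAC replicates 1, 2 and 3. The groups did not overlap, but the lowest 12DAC library lay close to the highest 7DAC library. The log2 change was 0.89 ± 0.38 (SE) and did not pass the test (edgeR adjusted p = 0.120). Its 93 counts in the 12DAC libraries and 57 in the 7DAC libraries gave a depth-scaled ratio of 1.80. The 95% interval of that ratio ran from 1.28 to 2.54 and covers counting error only, as do the other intervals and floors here.

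Its neighbours AT5G43370 and AT5G43360, also known from roots, were listed at 0 in all 6 libraries, in both the counts and the TPM (transcript abundance scaled by length and depth). A count of 0 over a group allows up to 3 counts, or 0.120 CPM over the 12DAC libraries and 0.109 CPM over the 7DAC libraries. Almost all of the AT5G43360 transcript is unique, whereas a read from a stretch that AT5G43370 shares with AT5G43350 could have been given to either gene or dropped. The sum over the 3 neighbours equals the row of AT5G43350, since the others were at 0. Its log2 change of 0.89 (edgeR adjusted p = 0.120) is therefore the same result and cannot recover dropped reads. Relative to AT2G38940, the TPM of AT5G43350 were 1.20 to 1.71 times what its counts and transcript length give, against 0.947 to 0.974 times for PHO1. The level of AT5G43350 therefore differs between the 2 deposited tables.

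The other 4 importer genes were low and did not pass the filter on low counts, which 2 of the 8 PHT1 genes and both PHO1 genes passed. PHT1;7 had 10, 26 and 6 counts in 12DAC replicates 1, 2 and 3, against 0, 0 and 3 counts in 7DAC replicates 1, 2 and 3. The depth-scaled ratio of the summed counts was 15.4, with a 95% interval of 4.93 to 77.8. PHT1;9, known from phosphate uptake by starved roots, had 7, 10 and 3 counts in 12DAC replicates 1, 2 and 3 and 0 in each 7DAC library. Against a floor of 3 counts over the 7DAC group the depth-scaled ratio was 7.34. It takes the 20 counts of the 12DAC group as exact, so it is not a lower bound.

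PHT1;8, the closest relative of AT1G76430 among the members, had 1, 7 and 1 counts in 12DAC replicates 1, 2 and 3 and 0 in each 7DAC library. Its ratio against the same floor was 3.30, again with its 9 counts taken as exact, and most of them lay in 12DAC replicate 2. PHT1;5, which moves phosphate between source and sink organs, had 1.33, 1.72 and 0.424 CPM in 12DAC replicates 1, 2 and 3, against 0.544, 0.988 and 0.553 CPM in 7DAC replicates 1, 2 and 3, and the groups overlapped. With no count filter, edgeR gave an adjusted p of 0.0149 for AT3G54700, 0.0116 for AT1G76430, 0.0828 for AT1G20860 and 0.449 for AT2G32830, where 9.19% of 24994 genes were called higher.

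**Figure D1:**
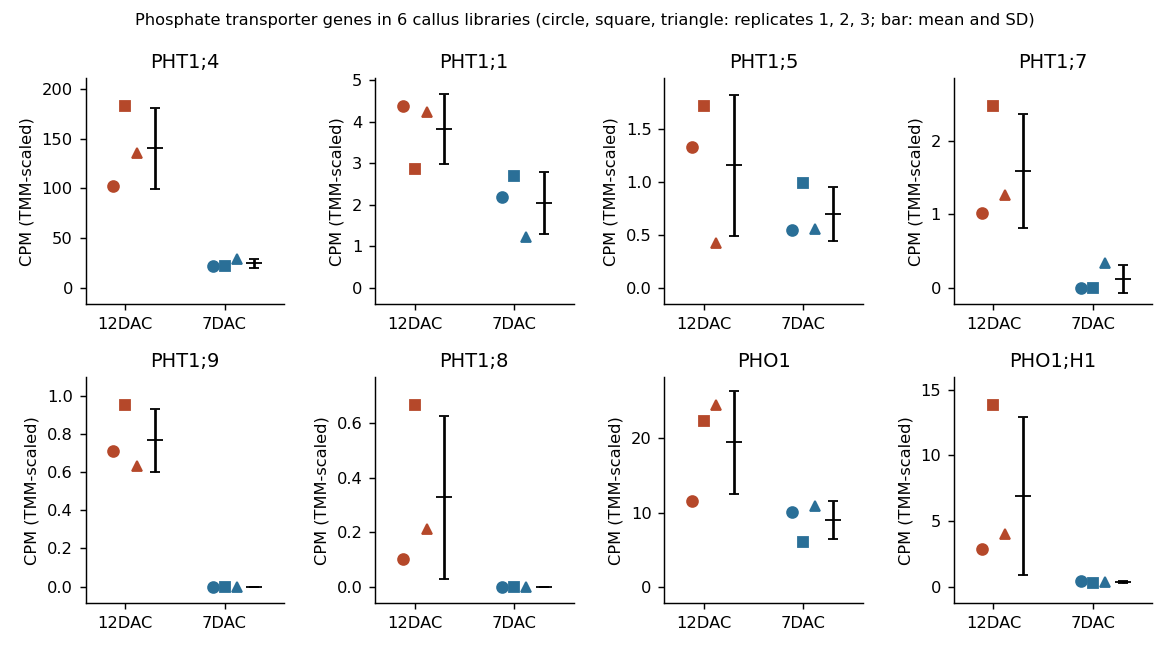
TMM-scaled CPM of the 8 members with any count, on linear axes with a scale of its own for each panel, 12DAC libraries on the left and 7DAC libraries on the right. Each point is 1 library, and the bar beside it gives the mean and SD. PHT1;4 reaches 183.2 CPM, and in 6 of the 8 panels 12DAC replicate 2 (square) is the highest 12DAC library.

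Both exporter genes were higher in 12DAC callus. PHO1, which loads the xylem, had 11.5, 22.4 and 24.6 CPM in 12DAC replicates 1, 2 and 3, against 10.07, 6.02 and 10.9 CPM in 7DAC replicates 1, 2 and 3. The groups did not overlap, but 12DAC replicate 1 stood close to 7DAC replicates 1 and 3. It rose by 1.11 ± 0.33 on the log2 scale (SE, edgeR adjusted p = 0.0463). With the replicate number as a block the edgeR adjusted p was 0.0511 and PHO1 was not called, while 28.1% of all genes were.

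The PHO1 call also rested on single libraries. Its edgeR adjusted p was 0.130 without 12DAC replicate 2, 0.103 without 12DAC replicate 3, 0.105 without 7DAC replicate 1, 0.112 without 7DAC replicate 2 and 0.0739 without 7DAC replicate 3. In these fits the log2 change lay between 0.88 and 1.28, and the share of all genes called was 19.5%, 23%, 13.4%, 15.6% and 16.4% in the same order. Without 12DAC replicate 1 the call held (edgeR adjusted p = 0.0137), where 17.9% of all genes were called.

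PHO1;H1, a relative that can stand in for PHO1 in the pho1 mutant, had 28, 145 and 19 counts in 12DAC replicates 1, 2 and 3, against 3 counts in each 7DAC library. That was 2.86, 13.85 and 4.02 CPM in 12DAC replicates 1, 2 and 3, and 0.408, 0.269 and 0.332 CPM in 7DAC replicates 1, 2 and 3. It rose by 4.37 ± 0.76 on the log2 scale (SE, edgeR adjusted p = 0.00690), and 45 of the 18364 genes tested had a log2 change at least as high. It passed the filter on low counts through its 12DAC libraries alone. Most of its 12DAC counts were in replicate 2, without which the log2 change was 3.30 (edgeR adjusted p = 0.00518).

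Leaving aside AT1G68740, which was tested only because it is high in 12DAC libraries, 2 of the other 3 tested members were called higher in 12DAC callus and 0 lower. Of all genes tested, 25.1% were called, 12.7% higher and 12.5% lower. With the replicate number as a block PHT1;4 kept its call and PHO1 lost it (edgeR adjusted p = 0.0511), while 28.1% of all genes were called. For each of these 3 members the 12DAC libraries lay above the 7DAC libraries without overlap, as they did for 21.2% of all genes tested, while the reverse held for 22.5%. Replicate 2 was the highest 12DAC library for 6 of the 8 members with a count, and for 34.3% of all genes tested. The 2 exceptions were AT5G43350, which was lowest there, and PHO1, which was highest in replicate 3.

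**Figure D2:**
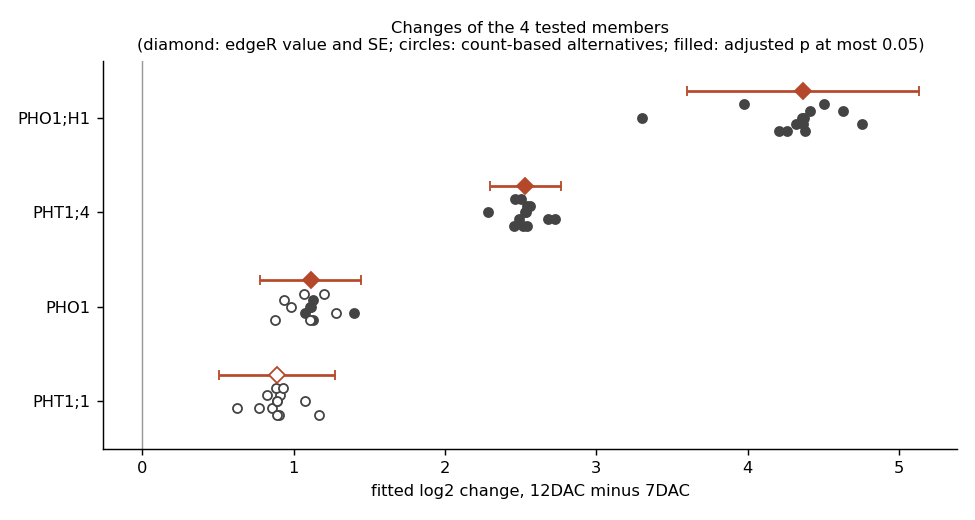
Fitted log2 change (12DAC minus 7DAC) of the 4 tested members. Diamonds with SE bars give the edgeR value, and circles give the other fits to the counts, including those without 1 library. Symbols are filled where the adjusted p is at most 0.05, which holds for every fit shown of PHT1;4 and PHO1;H1, for some of PHO1 and for none of PHT1;1.

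Levels of different genes were compared in TPM, per length. In 12DAC callus the mean TPM was 95.4 ± 34.2 for PHT1;4, 8.28 ± 2.78 for PHO1, 3.56 ± 0.79 for PHT1;1 and 2.87 ± 2.58 for PHO1;H1 (SD, n = 3 each). It was 1.09 ± 0.55 for AT3G54700, 0.823 ± 0.609 for AT2G32830, 0.503 ± 0.096 for AT1G76430 and 0.240 ± 0.195 for AT1G20860. In 7DAC callus the mean TPM was 15.5 ± 4.15 for AT2G38940, 3.59 ± 0.90 for PHO1, 1.76 ± 0.67 for AT5G43350, 0.463 ± 0.193 for AT2G32830, 0.120 ± 0.026 for AT1G68740 and 0.093 ± 0.162 for AT3G54700 (SD, n = 3 each). AT2G38940 lay above every other member in every library, and PHO1 lay above AT5G43350 without overlap on both days, although the lowest PHO1 value in 12DAC callus (5.12 TPM) was below the highest of AT1G68740 (5.85 TPM). From AT5G43350 down, each gene in the 12DAC order overlapped with the next. AT1G68740 stood above AT2G32830 in each 12DAC library and below it in each 7DAC library.

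Within the summed TPM of the 8 importer genes, PHT1;4 made up 91.4%, 95.2% and 93.9% in 12DAC replicates 1, 2 and 3, against 83.5%, 84.2% and 91.7% in 7DAC replicates 1, 2 and 3. The groups overlapped (exact two-sided permutation test, p = 0.2, adjusted over 6 members p = 0.24), and the smallest p that 3 libraries against 3 allow is 0.1. The share of PHT1;1 was 5.31%, 1.88% and 4.52% in 12DAC replicates 1, 2 and 3, against 14.2%, 12.3% and 5.03% in 7DAC replicates 1, 2 and 3. These groups overlapped too, since 12DAC replicate 1 stood above 7DAC replicate 3 (exact two-sided permutation p = 0.2, adjusted 0.24). Within replicate numbers, the share of the first was higher in 12DAC callus in 3 of 3 pairs, by 7.94, 10.99 and 2.18 percentage points, and that of the second lower in 3 of 3. The exact two-sided paired p was 0.25 for each, the smallest that 3 pairs allow. The other 4 detected importer genes held small shares. That of AT2G32830 was 1.31%, 0.928% and 0.163% in 12DAC replicates 1, 2 and 3, against 2.36%, 3.50% and 1.92% in 7DAC replicates 1, 2 and 3, with every 12DAC share below every 7DAC share. AT1G76430 made up 0.418% to 0.667% and AT1G20860 0.116% to 0.326% in 12DAC libraries, and both were listed at 0 in 7DAC libraries. For these 3 genes the exact two-sided permutation p was 0.1 (adjusted 0.2). AT3G54700 averaged 1.05% ± 0.25 in 12DAC callus and 0.447% ± 0.775 in 7DAC callus (SD, n = 3 each, exact permutation p = 0.4). The summed TPM itself was 77.9, 141.2 and 85.7 in 12DAC replicates 1, 2 and 3, against 13.1, 19.4 and 20.9 in 7DAC replicates 1, 2 and 3.

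In the summed TPM of the 2 exporter genes, AT1G68740 made up 20.1%, 36.1% and 13.6% in 12DAC replicates 1, 2 and 3, against 2.695%, 4.28% and 2.95% in 7DAC replicates 1, 2 and 3. Every 12DAC share was above every 7DAC share, and the exact two-sided permutation p was 0.1, the smallest possible, or 0.25 when paired by replicate number, again the smallest possible. This share was chosen after its values were seen.

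**Figure D3:**
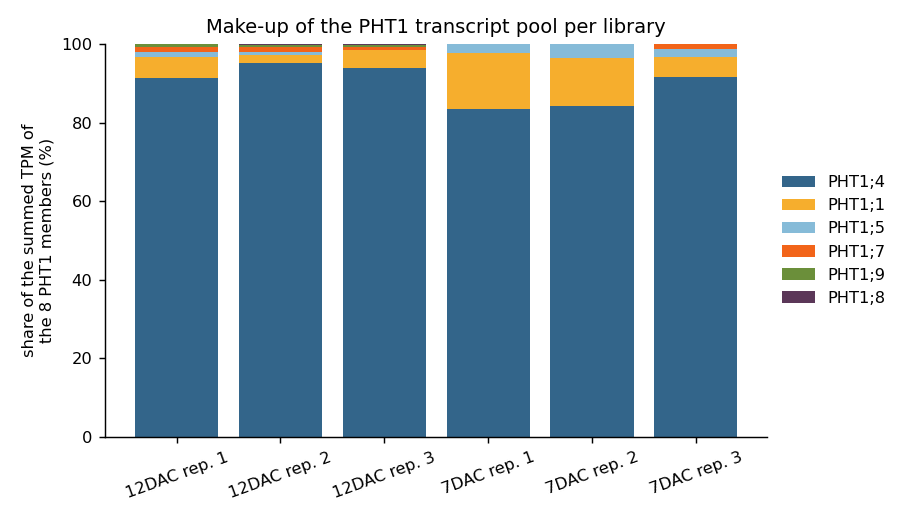
Share (%) of each PHT1 gene in the summed TPM of the 8 PHT1 members, with 1 stacked bar per library and the 12DAC libraries on the left. PHT1;4 fills between 83.5% and 95.2% of each bar, and the band of PHT1;1 is widest in 7DAC replicates 1 and 2.

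The promoters of AT2G38940 and AT3G54700, the closest pair outside the chromosome 5 cluster, are shown because each holds the letters of P1BS near its start. P1BS was searched as GNATATNC, which reads the same on both strands. The lines give 250 bases before to 10 after the annotated gene start, in the direction of the gene (RefSeq, TAIR10.1), from the plus strand of chromosome 2 for the first and the minus strand of chromosome 3 for the second. Capitals mark P1BS.
PHT1;4: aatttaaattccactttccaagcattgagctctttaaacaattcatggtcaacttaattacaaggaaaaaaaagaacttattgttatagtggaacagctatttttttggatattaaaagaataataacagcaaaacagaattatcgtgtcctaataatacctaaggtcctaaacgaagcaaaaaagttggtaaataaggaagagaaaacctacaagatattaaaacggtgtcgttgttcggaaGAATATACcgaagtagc
PHT1;7: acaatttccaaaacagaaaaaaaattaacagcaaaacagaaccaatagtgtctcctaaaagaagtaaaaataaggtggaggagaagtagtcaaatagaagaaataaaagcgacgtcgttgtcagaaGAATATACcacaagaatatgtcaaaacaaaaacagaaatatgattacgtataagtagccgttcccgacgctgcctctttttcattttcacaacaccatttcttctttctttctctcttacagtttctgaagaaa
In the window from 250 bases before to 50 after the start, 3 of the 10 members held these letters, as did 6.25% of 27443 protein-coding genes. In the 1000 bases before the start 6 of the 10 did, against 20.3% of all. Among genes tested, the letters stood in the shorter window of 9.40% of those called higher in 12DAC callus, 4.75% of those called lower and 6.22% of all.

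Sites of 7 members are shown with 11 bases on either side, so that their central letters and flanks can be compared. The number is the distance of the first capital from the annotated start. For PHT1;3 the annotated transcript is no longer than its coding sequence (1566 bases), so its windows and distance are counted from the start codon.
PHT1;4 at -7: gttgttcggaaGAATATACcgaagtagcaa
PHT1;7 at -124: cgttgtcagaaGAATATACcacaagaatat
PHT1;2 at -42: aatataaatatGGATATACccttaagattc
PHT1;3 at -393: aaataaaatgtGGATATACccttaagattc
PHT1;1 at -768: ctatgtttttcGAATATGCttttttaaaat
PHT1;8 at -476: gtgttcgagatGAATATCCggaagctgtgt
PHT1;5 at -475: atttttgtaagGTATATTCttatagattct
The first pair of sites share all 8 letters, and so do the sites of AT5G43370 and AT5G43360, which had no counts. Further sites lay at -322 in AT3G54700, at -786 in AT5G43350 and at -569 in AT5G43370. PHO1, AT1G68740 and AT1G76430 had no match from 1000 bases before to 50 after the start, which says only that these letters are not in that window. The W-box core TTGACN, bound by WRKY factors and searched on both strands, stood in the shorter window of 50.4% of all genes. In that window there were 1 match in AT2G38940, 3 in AT2G32830, 2 in AT3G54700 and 2 in AT1G76430, and none in the other 6 members. In the 1000 bases before the start every member held between 1 and 4 matches, where 88.1% of all genes held at least 1.

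**Figure D4:**
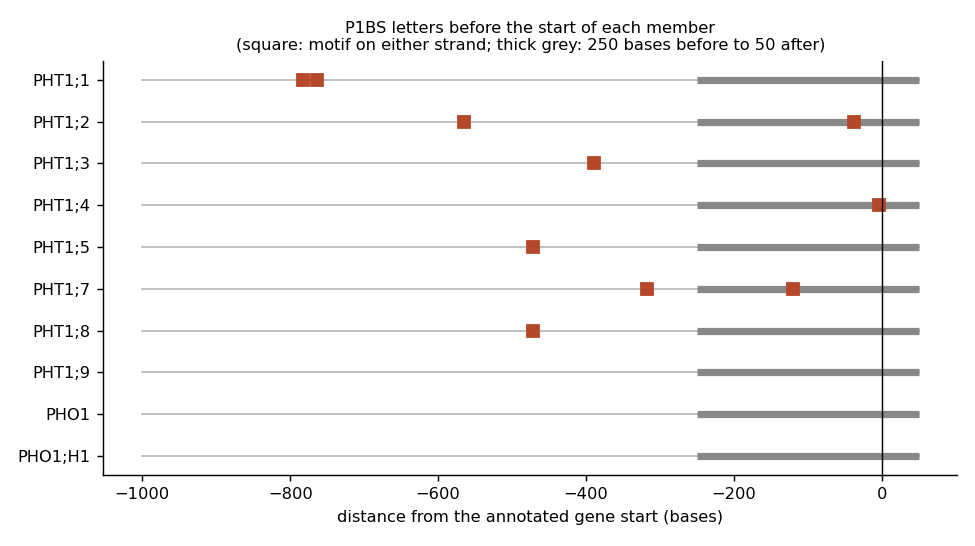
Position of P1BS letters (squares) in bases from the annotated start of each of the 10 members, from 1000 bases before to 50 after, with the window from 250 before to 50 after in thick grey. Sites at -7, -42 and -124 lie in the grey window, and the 3 genes PHT1;9, PHO1 and PHO1;H1 have no square.

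The remaining genes of the 2 families were tested in the same fit. Of the 10 others, PHT1;6 and 9 PHO1 relatives, 5 were tested, 0 rose and 1 fell, with a median log2 change of -0.37, where 25.1% of all genes tested were called and their median log2 change was -0.0015. The one that fell was PHO1;H3 (AT1G14040), a PHO1 relative known from phosphate control under zinc shortage. It averaged 13.3 ± 0.71 CPM in 12DAC callus and 19.9 ± 3.33 CPM in 7DAC callus (SD, n = 3 each), a log2 change of -0.57 ± 0.15 (SE, edgeR adjusted p = 0.0272). The call was lost without 12DAC replicate 1, 2 or 3 (edgeR adjusted p = 0.0690, 0.0503 and 0.0621) and without 7DAC replicate 1 or 3 (0.0961 and 0.0534).

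Of 15 transporters of organelles and related permeases 12 were tested, 2 rose, 1 fell and 9 were not called, with a median log2 change of -0.28. That share of calls is close to the 25.1% of all genes tested. G3Pp1 (AT3G47420), a glycerol-3-phosphate permease gene, averaged 204.5 ± 42.2 CPM in 12DAC callus and 28.7 ± 8.80 CPM in 7DAC callus (SD, n = 3 each). Its log2 change was 2.83 ± 0.25 (SE, edgeR adjusted p = 0.00164). PHT4;5 (AT5G20380), of a plastid and Golgi carrier family, rose by 0.55 ± 0.12 (SE, edgeR adjusted p = 0.0107), a call lost by limma on log2(TPM + 1), log2(TPM + 0.1) and log2(TPM + 1) without a filter (adjusted p = 0.195, 0.191 and 0.282). PHT3;1 (AT5G14040), a mitochondrial phosphate carrier, fell by 0.39 ± 0.10 (SE, edgeR adjusted p = 0.0238), a call lost without 12DAC replicate 2 (0.0555) or 7DAC replicate 1 or 2 (0.0829 and 0.0653).

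Among 4 genes for trafficking and turnover of the transporters 2 rose and 0 fell, with a median log2 change of 0.58. The shares over all genes tested were 12.7% higher and 12.5% lower. PHF1 (AT3G52190), needed for PHT1 proteins to reach the plasma membrane, averaged 39.7 ± 4.75 CPM in 12DAC callus and 21.5 ± 1.12 CPM in 7DAC callus (SD, n = 3 each), a log2 change of 0.89 ± 0.12 (SE, edgeR adjusted p = 0.00257). PHO2 (AT2G33770), which lowers PHO1 and PHT1 protein, rose by 2.00 ± 0.17 (SE, edgeR adjusted p = 0.00141).

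Over all genes tested 25.1% were called, 12.7% higher and 12.5% lower. Among 12 regulator genes 11 were tested, 3 rose and 0 fell, with a median log2 change of 0.83. All 3 encode SPX proteins that inhibit PHR1. SPX2 (AT2G26660) rose by 1.09 ± 0.17 (SE, edgeR adjusted p = 0.00362) and SPX1 (AT5G20150) by 2.67 ± 0.42 (SE, edgeR adjusted p = 0.0106). SPX3 (AT2G45130), with 0, 17 and 24 counts in 7DAC replicates 1, 2 and 3, passed the filter on low counts through its 12DAC libraries alone. Its log2 change was 4.86 ± 0.89 (SE, edgeR adjusted p = 0.0180), a call lost without 7DAC replicate 2 (0.0811).

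Both measured RNAs that mimic the target of miR399, the small RNA that lowers PHO2, rose, where 12.7% of all genes tested were called higher. IPS1 (AT3G09922), with 3, 63 and 79 counts in 7DAC replicates 1, 2 and 3, also passed the filter on low counts through its 12DAC libraries alone. Its log2 change was 4.14 ± 0.82 (SE, edgeR adjusted p = 0.0242), a call lost without 12DAC replicate 2 (0.0649) or 7DAC replicate 2 or 3 (0.0956 and 0.0565). AT5G03545 rose by 3.41 ± 0.78 (SE, edgeR adjusted p = 0.0376), a call lost without 12DAC replicate 1, 2 or 3 (0.0620, 0.113 and 0.0640) or 7DAC replicate 2 (0.122) and without the count filter (0.0663).

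**Figure D5:**
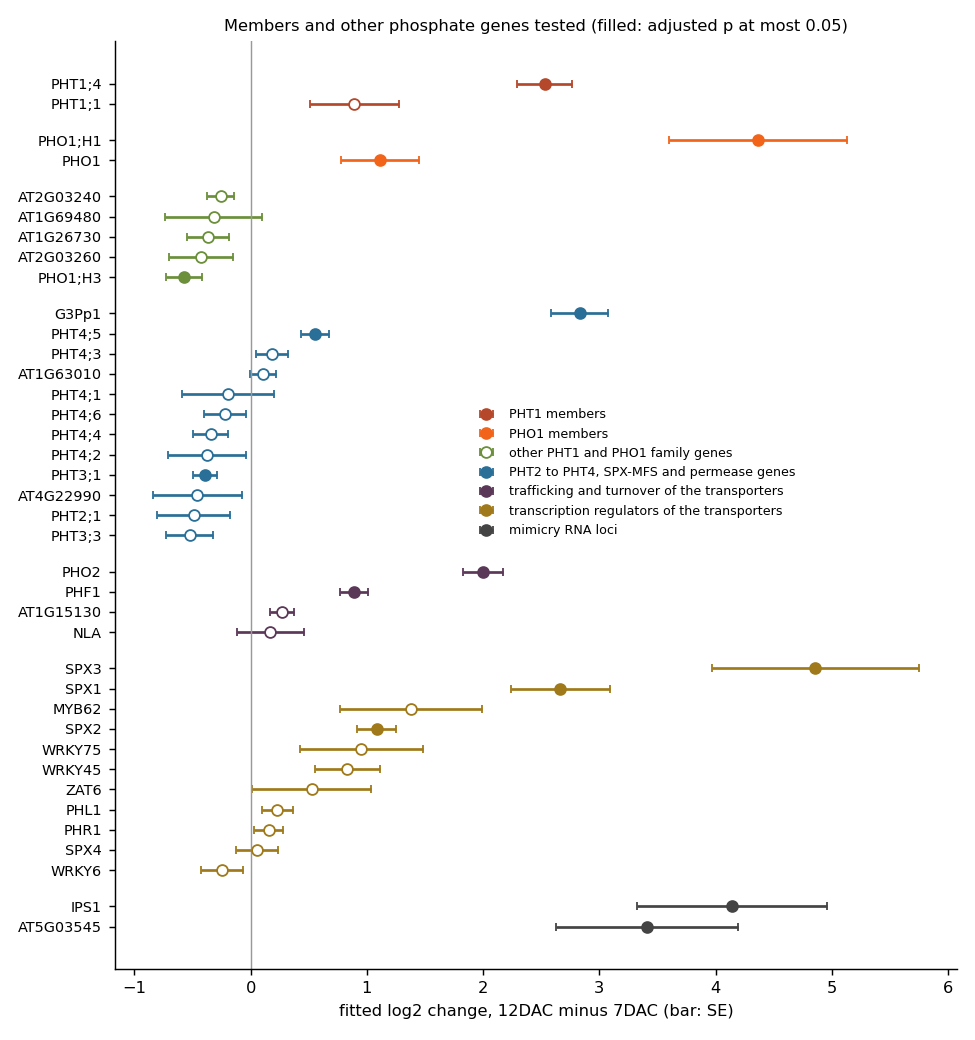
Fitted log2 change with its SE (12DAC minus 7DAC) of the tested members and other phosphate genes, coloured by list and filled where the adjusted p is at most 0.05. PHO1;H1 (4.37), SPX3 (4.86) and IPS1 (4.14) lie farthest to the right, and the 5 other PHO1 relatives tested lie left of 0.

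Profiles over the 6 libraries were compared only with tested genes outside the members that have a symbol in the reference annotation. Among these, the genes most like AT2G38940 were MLP329 (AT2G01530), FHL (AT5G02200), the sulfolipid synthase gene SQD2 (AT5G01220) and G3Pp1. Their root mean square differences from it, on centred log2 CPM among 7967 genes compared, were 0.163, 0.186, 0.211 and 0.246. These log2 CPM had a prior count of 2, which narrows the changes of genes with few counts. The fitted log2 changes of the 4 were 3.23, 2.22, 2.92 and 2.83, against 2.53 for AT2G38940. For PHO1 the most similar were ATG8E (AT2G45170), HSP70 (AT3G12580), UGE5 (AT4G10960) and SHP1 (AT3G58780), at 0.181, 0.211, 0.221 and 0.231. Of these 4, ATG8E was called (log2 change 1.18, edgeR adjusted p = 0.0110), and the edgeR adjusted p of the others lay between 0.0659 and 0.116.

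The 12DAC libraries held 4927953 to 10426265 counts and the 7DAC libraries 7412972 to 10746277. Loci of rRNA took 4.15% to 20.3% of TPM in 12DAC libraries and 1.67% to 30.7% in 7DAC libraries. The 9 callus and root primordium markers summed to 732 to 873 CPM in 12DAC callus and 596 to 621 CPM in 7DAC callus, with 1 called higher and 1 lower of 7 tested. The 8 root epidermis and root hair markers summed to 10.99 to 17.6 CPM in 12DAC callus and 11.07 to 16.2 CPM in 7DAC callus. Of these only 3 were tested, and 0 were called. The 8 stele markers summed to 417.5 to 458 CPM in 12DAC callus and 404 to 472 CPM in 7DAC callus, with 0 of 8 tested called. The 7 endodermis markers summed to 127 to 135 CPM in 12DAC callus and 107 to 122.5 CPM in 7DAC callus, with 4 higher and 1 lower of 5 tested. Most of that sum was SCR, the 1 called lower. It had 68.97 to 83.25 CPM in 12DAC callus and 92.59 to 117.1 CPM in 7DAC callus. The 4 called higher rose by 1.24 to 3.13 on the log2 scale, some of them tested only through their 12DAC libraries. CASP1 and CASP2 had 0 counts in 7DAC libraries. The 8 mesophyll markers summed to 60.6 to 98.6 CPM in 12DAC callus and 149 to 243 CPM in 7DAC callus, with 6 of 7 tested lower. Of those 6, 1 was tested only through its 7DAC libraries. Over all genes tested 12.7% were called higher and 12.5% lower. The part of these cell types in the members' changes was not tested.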

How the data were processed

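RNA-seq of 6 callus libraries was analysed. The deposited counts are whole numbers, not normalized, and the deposited TPM table holds length-scaled values. The submitters' processing notes name STAR 2.7.10a, RSEM 1.3.1 and TAIR10 without giving their roles, and neither strand setting nor the handling of reads with several matches is given in the sources used here. A large rRNA share lowers the TPM of all other genes, so counts were tested and TPM served for levels per length.

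Testing used edgeR 4.0.16 (R 4.3.3) with filterByExpr, TMM factors and robust quasi-likelihood, day being the only term. P-values were adjusted by Benjamini-Hochberg over all 18364 genes tested and called at 0.05. Log2 changes are 12DAC minus 7DAC, with an SE of the absolute log2 change over the square root of F. Alternatives were other scaling factors, no filter, DESeq2 1.42.0, limma 3.58.1 (voom, or trend on log2(TPM + 1) or log2(TPM + 0.1) with a mean of at least 1 TPM), a replicate block, removal of organelle and rRNA loci and loss of each library. Shares were tested by exact permutation (scipy 1.17.1).

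The replicate numbers were taken to pair libraries across days. Deviations from the day means correlated at 0.151, 0.156 and 0.244 between libraries of one number, and at -0.162 to 0.00563 between the rest. This pairing comes from the data, since the labels name no shared batch, and blocked values stand beside a result they change. Every pair of replicates differed by more than counting noise (chi-square per degree of freedom of at least 10.2).

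Sequences were read by locus ID from RefSeq assembly TAIR10.1. Coordinates are not printed because the build differs from the one in the notes. Coding sequences were aligned globally (biopython 1.88) where proteins had been planned, and 7 miRNA loci of the lists were not analysed here. The members and lists were chosen with earlier results of these data known. Named genes are the 10 members, the 3 best-ranked calls of each phosphate list (by adjusted p) with the top call of opposite sign, and the 4 most similar profiles of AT2G38940 and PHO1. By this rule the profiles were sought only among tested genes with a reference symbol. CASP1 and CASP2 are named outside that rule, after their values were seen, as defining markers without counts in one group. The endodermis marker SCR is also named outside it, as most of that list's sum.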

Additional observations from a re-analysis of the deposited data

How the results depend on the processing

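PHT1;4 kept its direction and its call in all 17 other fits, and PHT1;1 was uncalled in all 17. The sum of PHT1;1 to PHT1;3 equals PHT1;1, since PHT1;2 and PHT1;3 were listed at 0, so its 16 uncalled fits add no test. PHO1 kept its direction in all 17 and lost its call in 12. PHO1;H1 kept its direction in all 17 and lost its call on log2(TPM + 0.1) and on log2(TPM + 1) without a filter. The replicate block left 1 PHO1-family gene called, PHO1;H1, and changed no other member's call.

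Over all genes 4616 were called, against 1080 on log2(TPM + 1), 1083 on log2(TPM + 0.1), 371 on log2(TPM + 1) without a filter, and 2529 to 4342 without 1 library. Of the PHT1 genes 1 was called, against 3 without a count filter and 1 to 2 without 1 library, where the second was PHT1;7. In those fits without 1 library PHT1;7 passed the filter on low counts through its 12DAC libraries alone. Of the PHO1 family 2 were called, against 1 without a count filter, by limma-voom, on log2(TPM + 1) and on TPM rescaled without organelle and rRNA loci (chosen after seeing the data). The number was 0 on log2(TPM + 0.1) and on log2(TPM + 1) without a filter, and 1 to 2 without 1 library. Of the other phosphate genes 2 were called lower, against 0 in each of the 4 TPM fits and 0 to 1 without 1 library. Called higher were 9, against 8 on log2(TPM + 1), 8 on log2(TPM + 0.1), 6 on log2(TPM + 1) without a filter and 6 to 10 without 1 library. With the replicate block 10 were called higher. Among the 9, SPX3 and IPS1 were tested only through their 12DAC libraries. The share of PHT1;4 was 7.04 percentage points higher in 12DAC callus, and that of PHO1;H1 19.95 points higher, with the same sign in each other alternative run. The replicate block (chosen after seeing the data) gives the same 2 differences by arithmetic, so its sign adds no test. Depth limits PHT1;5, PHT1;7, PHT1;8 and PHT1;9, with at most 26 counts in any library.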
